A study of Drosophila melanogaster with 4 samples.

Results

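Genes of synaptic vesicle endocytosis were followed in dvpdf neurons of Drosophila melanogaster brains. The 9 members were synj, endoA, shi, lap, stnA, stnB, Eps-15, Dap160 and nwk, chosen by symbol for their role in vesicle recycling at the synapse, and all 9 were found among the 14162 gene symbols of the files. Messenger RNA was extracted, amplified and sequenced in 4 libraries. The control label is on 2 of them and the NonA RNAi label on the other 2, in which nonA, the gene of a nuclear RNA-binding protein, was the target of RNA interference. The dvpdf label is the name of a driver known to be active in PDF-expressing lateral clock neurons and in some PDF-negative ones. The labels name no RNA interference line, genotype, sex, age or time of day, and they do not state whether the replicates are separate animals or dissections, which limits every p-value to the spread among these libraries and leaves that spread possibly technical.

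After a vesicle fuses at the presynaptic membrane, its proteins and lipids are taken back up and a new vesicle is made. AP180 (lap) and clathrin build the coat, stonins select cargo such as synaptotagmin, endophilin (endoA) binds curved membrane, and dynamin (shi) cuts the neck of the bud. Synaptojanin (synj) then removes phosphates from phosphoinositides so that the coat can be shed, while intersectin (Dap160), Eps-15 and the F-BAR protein Nervous wreck (nwk) act as scaffolds that link coat, dynamin and actin. In Drosophila these genes are known from the motor terminal and the photoreceptor, where temperature-sensitive shi alleles stop vesicle recycling and paralyse the fly.

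The gene reads came to between 8419248 and 9832771 per library, and levels are given as gene reads scaled to library size (CPM), so that 3 reads corresponded to between 0.305 and 0.356 CPM. The targeted gene nonA was at 255.8 CPM in control replicate 1, 240.5 CPM in control replicate 2, 167.7 CPM in the library labelled NonA RNAi replicate 1 and 283.2 CPM in that labelled NonA RNAi replicate 2. Replicate 2 thus had the highest nonA level of the 4 libraries, against its label, so directions rest on the labels alone and the libraries are called NonA RNAi-labelled. The log2 fold of nonA, NonA RNAi-labelled against control, was -0.14 (standard error 0.48). Its 95% interval, from -1.29 to 1.02, leaves room for changes of about 0.408-fold to 2.02-fold. Neuronal genes were read in each library, with elav at 163.1 to 255.5 CPM and n-syb, the vesicle SNARE gene, at 605.8 to 683.9 CPM. The most abundant pan-neuronal markers were nrv3 at 1211 to 2849.9 CPM and Appl at 1578.5 to 1828.4 CPM. Clock neuron genes were also read in each, with Pdf at 2159.0 to 86574.6 CPM, itp at 931.7 to 17016 CPM and tim at 829.5 to 2593.5 CPM. With no library of another tissue to compare, these levels do not measure purity. Pdf took between 0.216% and 8.66% of the gene reads. Summed glial markers, all 10 of them read in each library, reached 2007.4 and 6223.2 CPM for control replicates 1 and 2, then 587.5 and 2511.2 CPM for NonA RNAi-labelled replicates 1 and 2, with Gs2 at 114.3 to 3932.2 CPM and repo, the defining glial factor, at 15.6 to 123.6 CPM. Because these are bulk libraries, fewer cells of a type and less RNA per cell cannot be told apart.

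In the Ensembl annotation of BDGP6, a later build than the dm3 of the files, synj and Eps-15 lie on chromosome arm 2R, endoA and lap on 3R, Dap160 on 2L, nwk on 3L, and shi, stnA and stnB on X.

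No level was assigned to the stoned locus. The locus is known for a dicistronic transcript that encodes stoned A, a presynaptic protein, and stoned B, the fly stonin. Both stnA and stnB were listed at 0 reads in each of the 4 libraries, and both carry the same listed length of 23927 bases. In BDGP6 all 8332 exonic bases of stnA also belong to stnB on the same strand of the X chromosome, 100% of the exons of either gene. The files keep a separate entry for ambiguous reads, which held 115977 and 182013 reads in control replicates 1 and 2, then 139393 and 116360 in NonA RNAi-labelled replicates 1 and 2. Whether reads of the locus fell into that entry cannot be read from the counts. The 0 listed for stnA and stnB was therefore not taken as absence of expression.

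The same listing was common among genes built like the stoned pair. Of 194 genes whose exonic bases were all shared with another gene on the same strand, 167 (86.1%) had 0 reads in all 4 libraries. Of 7048 genes that shared no exonic base, 1840 (26.1%) did, and of 56 genes whose exonic bases were all shared with genes on the opposite strand only, 11 (19.6%) did. Of 3265 genes that shared some but not every exonic base, 245 (7.5%) did, a lower share than among genes that shared none. These counts were made among 10566 genes whose span in BDGP6 lay within 50 bases of the listed length, and they include genes that may be silent in these neurons. The other 7 members shared no exonic base with another gene, except nwk, for which 1.87% of the exonic bases overlapped the gene of the microRNA mir-4940 on the same strand.

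**Figure D1:**
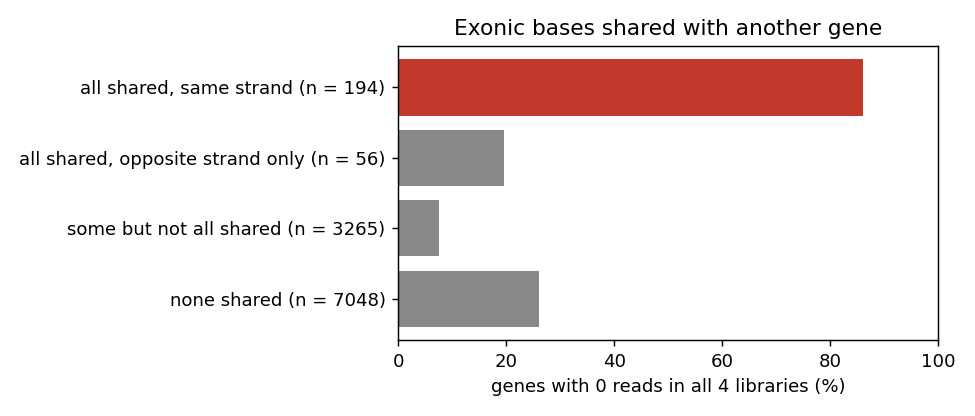
Percentage of genes with 0 reads in all 4 libraries (horizontal axis), for genes grouped by how many of their exonic bases belong to another gene in the BDGP6 annotation (n is the number of genes in each class). The class that holds stnA and stnB, with all exonic bases shared on the same strand, stands at 86.1%, against 26.1% for genes that share none.

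The 7 measured members spanned a wide range of levels. Dynamin, AP180 and endophilin together made up between 75.6% and 88.6% of the summed level of the members, which was 2343.9 and 1800.7 CPM for control replicates 1 and 2, then 1735.6 and 2433.0 CPM for NonA RNAi-labelled replicates 1 and 2. Per kilobase of exons, the mean level over the 4 libraries was 126.7 CPM for shi, 109.3 CPM for endoA and 87.4 CPM for lap. On that scale shi lay above 93.2%, endoA above 91.6% and lap above 89.1% of 9247 tested genes with an annotation match.

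Synaptojanin was intermediate, at a mean of 36.0 CPM per exonic kilobase, and nwk followed at 13.7. The scaffold genes Dap160 and Eps-15 were the scarcest, at 7.17 and 6.07, above 29.8% and 26.5% of the tested genes. The ranges of shi (97.3 to 157.8), endoA (89.5 to 137.4) and lap (58.2 to 111.7) overlapped across libraries, as did those of Dap160 (6.21 to 9.25) and Eps-15 (3.92 to 11.7). Those of synj (24.5 to 52.7) and nwk (12.3 to 15.6) overlapped no other member's range. On the deposited RPKM scale the order differed, with endoA at a mean of 39.8 and shi at 19.0, because the listed lengths are whole gene spans: exons make up 41% of the span of shi and 44.1% of that of lap, but 100% of that of endoA.

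**Figure D2:**
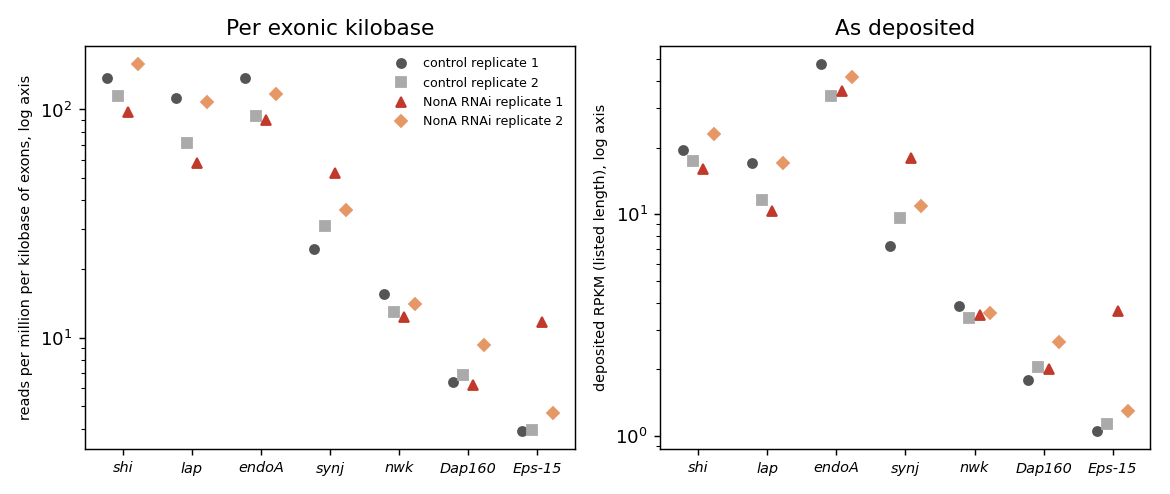
Levels of the 7 measured members per kilobase of exons (left, CPM per exonic kilobase) and as the deposited RPKM, which uses the listed gene span (right), both on log axes with 1 symbol per library. endoA stands clear of shi on the right (means of 39.8 and 19.0) but overlaps it on the left (109.3 and 126.7).

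Among the genes that bud and cut the vesicle, the groups overlapped for all 3 abundant members. The shi gene, which encodes dynamin, was at 819.6 and 689.0 CPM in control replicates 1 and 2 and at 582.9 and 944.8 CPM in NonA RNAi-labelled replicates 1 and 2. Its group means were 754.3 ± 92.3 CPM and 763.9 ± 255.9 CPM (SD, n = 2 each), so the NonA RNAi-labelled pair held both the lowest and the highest library. The log2 fold of NonA RNAi-labelled against control was 0.02 (standard error 0.49). Its 95% interval, from -1.17 to 1.21, leaves room for changes of about 0.444-fold to 2.31-fold.

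AP180, encoded by lap, recruits clathrin and sets vesicle size. Its level was 687.8 and 440.5 CPM for control replicates 1 and 2, then 358.1 and 666.3 CPM for NonA RNAi-labelled replicates 1 and 2. Replicates of lap differed by 1.56-fold in the controls and by 1.86-fold in the NonA RNAi-labelled pair, more than the means did. The log2 fold was -0.14 (standard error 0.54), and it was 0.22 without control replicate 1 and 0.24 without NonA RNAi-labelled replicate 1. Endophilin A, encoded by endoA, was at 569.9 and 386.5 CPM for control replicates 1 and 2, then 371.1 and 485.4 CPM for NonA RNAi-labelled replicates 1 and 2, again with control replicate 1 highest and NonA RNAi-labelled replicate 1 lowest. Its log2 fold was -0.16 (standard error 0.47), and the direction turned when control replicate 1 (0.15) or NonA RNAi-labelled replicate 1 (0.02) was left out.

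Synaptojanin was 1 of 2 members with separated groups. The synj gene was at 116.6 and 146.8 CPM for control replicates 1 and 2, then 251.0 and 172.5 CPM for NonA RNAi-labelled replicates 1 and 2, from 982, 1443, 2428 and 1476 reads. Both NonA RNAi-labelled libraries lay above both controls, with means of 211.7 ± 55.5 CPM against 131.7 ± 21.3 CPM (SD, n = 2 each). The lowest NonA RNAi-labelled library was 1.18 times the highest control, less than the 1.46-fold and 1.26-fold gaps within the groups. The log2 fold was 0.68 (standard error 0.46), with a 95% interval from -0.43 to 1.8, and it did not pass the quasi-likelihood test of edgeR after Benjamini-Hochberg adjustment over all genes (adjusted p = 0.924). It remained above 0 without each library in turn, between 0.39 and 0.93.

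Eps-15, an EH-domain scaffold that binds the clathrin adaptor AP-2, was the other separated member. Its level was 21.4 and 21.6 CPM for control replicates 1 and 2, then 63.8 and 25.5 CPM for NonA RNAi-labelled replicates 1 and 2. The controls were nearly equal, NonA RNAi-labelled replicate 2 lay just above them, and replicate 1 stood apart by 2.5-fold from its partner. Counting error alone, as exact Poisson 95% intervals, covers 58.8 to 69.0 CPM in NonA RNAi-labelled replicate 1 and 22.2 to 29.1 CPM in replicate 2, and since the RNA was amplified, such intervals do not cover the full error. The log2 fold was 1.06 (standard error 0.62), with a 95% interval from -0.44 to 2.55 (edgeR adjusted p = 0.919). DESeq2 on all 4 libraries gave an adjusted p of 0.862. Without NonA RNAi-labelled replicate 1 the log2 fold was 0.25, so that library set most of the difference. Without NonA RNAi-labelled replicate 2 it was 1.57, and that value rests on replicate 1 alone in its group.

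Groups were also apart for many other genes. Both NonA RNAi-labelled libraries lay above both controls for 2 of the 7 measured members, against 15.2% of the 9404 genes tested, and below both controls for 0 of 7, against 17.5%. With so few members, 2 of 7 is close to the 32.8% of all tested genes whose groups were apart in either direction. Of 11 circadian neuron markers, 6 were, like synj and Eps-15, higher in both NonA RNAi-labelled libraries than in both controls, 8 had a log2 fold above 0, and the median was 0.58. In edgeR 0 of them passed and 1 reached an unadjusted p of 0.05, and 1 was called by DESeq2. Among them Pdf was at 4979.2 and 2159.0 CPM for control replicates 1 and 2, then 18435.8 and 86574.6 CPM for NonA RNAi-labelled replicates 1 and 2. The next most abundant, itp, overlapped between the groups, at 17016, 1201.4, 931.7 and 15114.4 CPM in the same order. The summed circadian markers overlapped between the groups, at 29433.2 and 7306.0 CPM, then 27187.9 and 109907.5 CPM. Of the 10 photoreceptor, 9 tested fat body and hemocyte, and 10 glial markers 0 passed in edgeR. There 3, 4 and 0 reached an unadjusted p of 0.05, against 4.86% of all genes tested. DESeq2 called 2, 3 and 0, against 142 of all 9404 genes. Both NonA RNAi-labelled libraries lay below both controls for 7, 3 and 1 of them, against 17.5% of the genes tested. They lay above both for 0, 0 and 1, against 15.2%. Log2 folds were below 0 for 8 of the fat body and hemocyte markers and for 9 of the glial ones. Summed photoreceptor markers were at 384.1 and 541.1 CPM for control replicates 1 and 2, then 155.0 and 276.9 CPM for NonA RNAi-labelled replicates 1 and 2, with the opsin gene ninaE at 35.5 to 141.0 CPM. The most abundant of them, norpA, overlapped between the groups, at 143.1, 170.8, 71.7 and 182.2 CPM in the same order. Of these 10 markers 9 had a log2 fold below 0, and 1, 0, 4 and 0 of them had no reads in the 4 libraries in that order. Summed fat body and hemocyte markers overlapped between the groups, at 2549.2 and 440.1 CPM for control replicates 1 and 2, then 67.2 and 498.6 CPM for NonA RNAi-labelled replicates 1 and 2. Of the 10 genes in this list 1, 2, 7 and 3 had no reads in the 4 libraries in that order. Lsp2, a larval serum protein gene, had 0 reads in both NonA RNAi-labelled libraries. In the same order Hml was at 476.5, 218.9, 0 and 220.3 CPM and Ppn at 545.7, 171.2, 1.76 and 202.4 CPM. The part of cell composition in the synj and Eps-15 values was not tested.

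**Figure D3:**
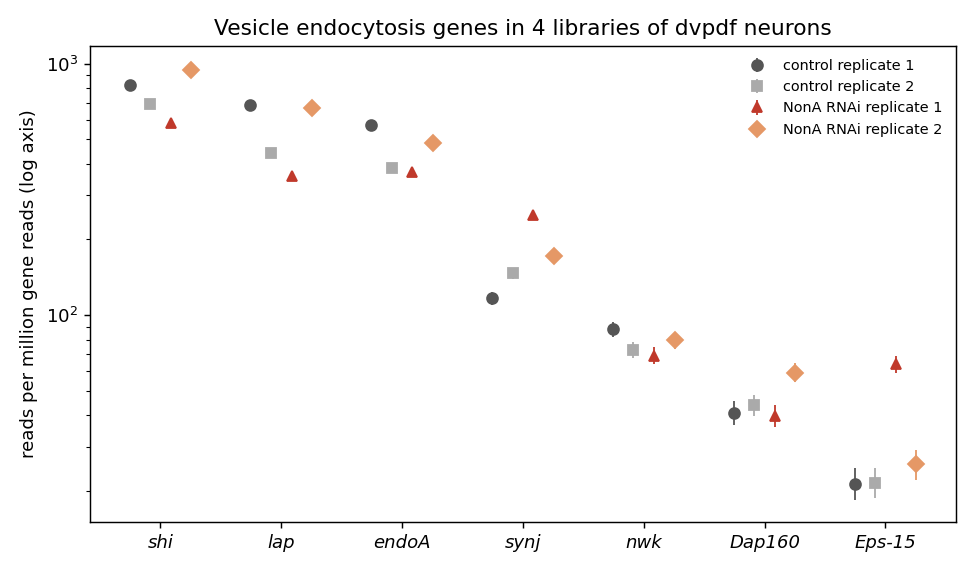
CPM on a log axis for the 7 measured members, with 1 symbol per library and bars for the exact Poisson 95% counting interval. For synj and Eps-15 both NonA RNAi-labelled libraries lie above both controls, while for shi, lap, endoA, nwk and Dap160 the groups overlap.

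The remaining scaffold genes varied little. Dap160, whose protein holds dynamin and other endocytic proteins at the terminal, was at 40.9 and 43.8 CPM for control replicates 1 and 2, then 39.7 and 59.1 CPM for NonA RNAi-labelled replicates 1 and 2. Only NonA RNAi-labelled replicate 2 stood out, and the log2 fold of 0.22 (standard error 0.48) turned to -0.09 without it. Nervous wreck, which restrains growth of the motor terminal and works with Dap160 and the actin nucleation factor WASp, was at 87.8 and 72.6 CPM for control replicates 1 and 2, then 69.0 and 79.5 CPM for NonA RNAi-labelled replicates 1 and 2. Its highest library was 1.27 times its lowest, the smallest span of the 7 members, where the median gene with a mean of at least 10 CPM spanned 2.31-fold. The log2 fold of nwk was -0.11 (standard error 0.43).

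In the test over all genes, 0 of the 7 measured members passed an adjusted p of 0.05 in edgeR, and 0 reached an unadjusted p of 0.05 in either direction, where 1.29% of all genes tested did so as higher and 3.57% as lower. DESeq2 called 0 members. Over all 9404 genes tested edgeR called 0 (0%), 457 (4.86%) reached an unadjusted p of 0.05, and DESeq2 called 142. The median log2 fold was 0.02 over the measured members and -0.01 over all genes tested. Adjusted p-values of the members in edgeR lay between 0.919 for Eps-15 and 0.999 for shi. The 95% intervals of the log2 folds had their lower bounds between -1.44 and -0.43 and their upper bounds between 0.93 and 2.55, so a change to about 1.9 times the control level was within the interval of each member. With 2 libraries on each side, 0.333 is the smallest two-sided p that exact permutation of the labels allows for 1 gene.

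**Figure D4:**
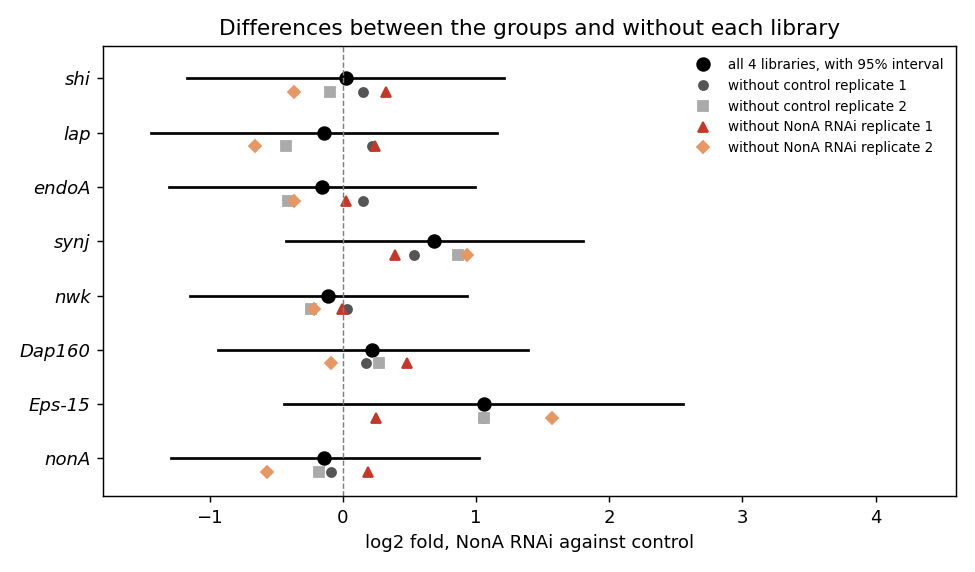
Log2 fold of NonA RNAi-labelled against control for the 7 measured members and nonA (black circles, with 95% intervals from edgeR), and the same fold with each library left out (coloured symbols). Every interval includes 0, and the folds of shi, lap, endoA, nwk, Dap160 and nonA cross 0 when single libraries are left out.

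The order of the libraries often crossed the labels. NonA RNAi-labelled replicate 1 was the lowest of the 4 libraries for shi, lap, endoA, nwk and Dap160 and the highest for synj and Eps-15, so it was an extreme for 7 of 7; it was lowest for 27.4% and highest for 32.6% of the genes tested. For shi, lap, endoA and nwk, control replicate 1 and NonA RNAi-labelled replicate 2 both lay above the other libraries, an arrangement found for 15.5% of the genes tested and noticed here after the values were seen. Of the other 3 members, Dap160 had both replicates 2 above both replicates 1 (14.5% of the genes tested), 0 had both replicates 1 above both replicates 2 (17.5%), and 0 had control replicate 2 and NonA RNAi-labelled replicate 1 on top (17.7%). NonA RNAi-labelled replicate 1 also held the largest share of gene reads among all entries (22.0%, against 15.9% to 16.5% elsewhere) and the lowest nonA level, and the part of either in these values was not tested.

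Ratios of reads between members, which do not depend on the scaling of libraries, showed the same division. The synj reads were 0.205 and 0.38 of the endoA reads for control replicates 1 and 2, then 0.676 and 0.355 for NonA RNAi-labelled replicates 1 and 2, so the groups overlapped although those of synj alone did not. Relative to shi, synj stood at 0.142 and 0.213 for control replicates 1 and 2, then 0.431 and 0.183 for NonA RNAi-labelled replicates 1 and 2. The lap to shi ratio ran from 0.614 to 0.839 and the endoA to shi ratio from 0.514 to 0.695, spans of 1.37-fold and 1.35-fold over the 4 libraries. Eps-15 to Dap160, by comparison, spanned 3.73-fold, from 0.431 to 1.61, with NonA RNAi-labelled replicate 1 at the top.

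The wider endocytic pathway showed no list whose genes passed the test. Of 9 genes of the clathrin coat, its adaptors and uncoating, 0 passed in edgeR in either direction, none reached an unadjusted p of 0.05 there (0 genes), and 0 were called by DESeq2, with 5 log2 folds above and 4 below 0 and a median of 0.05. Hsc70-4, the chaperone that strips clathrin, was at 1910.1 and 1728.5 CPM for control replicates 1 and 2, then 2561.3 and 1441.3 CPM for NonA RNAi-labelled replicates 1 and 2. The clathrin heavy chain gene Chc was at 292.9 and 295.9 CPM against 230.8 and 305.3 CPM. Auxilin, encoded by aux, brings Hsc70-4 to the coat and was, like synj, highest in NonA RNAi-labelled replicate 1, at 161.5 and 148.5 CPM for control replicates 1 and 2, then 388.3 and 125.7 CPM for NonA RNAi-labelled replicates 1 and 2. The AP-2 medium chain gene AP-50 was lower in both NonA RNAi-labelled libraries, at 72.9 and 101.4 CPM, than in the controls, at 188.6 and 101.8 CPM, though by a narrow margin. It had the smallest p of these 9 genes, of which 1 lay below both controls and 1 above. Over all genes tested 17.5% lay below and 15.2% above.

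Of 9 genes for membrane curvature, actin and endosomal trafficking, 9 had a log2 fold below 0, with a median of -0.33, and 0 passed in edgeR; 0 did at an unadjusted p of 0.05, and 0 were called by DESeq2. All 9 also lay below 0 under TMM and median-of-ratios scaling, but 7 of 9 did without control replicate 2 or without NonA RNAi-labelled replicate 1. Over all genes tested the median log2 fold was -0.01. Against 17.5% and 15.2% of all genes tested, 2 of these 9 genes lay below both controls in both NonA RNAi-labelled libraries and 0 above. Rab5, the early endosome GTPase, was the most abundant, at 421.4 and 506.8 CPM for control replicates 1 and 2, then 317.4 and 430.4 CPM for NonA RNAi-labelled replicates 1 and 2. The syndapin gene Synd was at 120.8 and 145.3 CPM against 104.1 and 87.9 CPM. Amphiphysin, a BAR-domain protein encoded by Amph, was at 174 and 1018.2 CPM for control replicates 1 and 2, then 54.8 and 219.4 CPM for NonA RNAi-labelled replicates 1 and 2, which gave a log2 fold of -2.12 (standard error 1.01). Its order over the libraries was that of the summed glial markers and of Gs2, the most abundant of them. Other glial markers ran in other orders. In control replicates 1 and 2, then NonA RNAi-labelled replicates 1 and 2, repo was at 15.6, 123.6, 36.0 and 37.4 CPM. In the same order nrv2 was at 554.3, 1208.4, 72.5 and 366.6 CPM. The part of glial RNA in the level of Amph was not tested.

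Among the regulators of phosphoinositides and calcium, 11 of the 12 genes were tested, 0 passed in edgeR, none reached an unadjusted p of 0.05 there (0 genes), and 0 were called by DESeq2, with a median log2 fold of 0. The calcineurin B gene CanB was at 681.7 and 578.5 CPM for control replicates 1 and 2, then 548.3 and 712.4 CPM for NonA RNAi-labelled replicates 1 and 2, and the vesicle calcium channel gene flower at 552.2 and 480.6 CPM against 330.2 and 736.8 CPM. The tweek gene, needed for phosphoinositide supply at the terminal, was higher in both NonA RNAi-labelled libraries, at 280.8 and 214.2 CPM against 182.9 and 110.9 CPM. The phosphatidylinositol phosphate kinase gene sktl was lower in both, at 6.31 and 3.86 CPM against 10.5 and 19.1 CPM. Both tweek and sktl were named for the smallest p of this list. Of its 11 tested genes 1 lay above both controls in both NonA RNAi-labelled libraries and 2 below. The shares over all genes tested were 15.2% and 17.5%.

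For the 13 proteins that ride on the vesicle, 0 passed in edgeR, 1 reached an unadjusted p of 0.05 (higher), and 1 was called by DESeq2, with a median log2 fold of 0. The gene in edgeR was Vmat, the vesicular monoamine transporter, at 92.2 and 152.4 CPM for control replicates 1 and 2, then 344.1 and 563.2 CPM for NonA RNAi-labelled replicates 1 and 2, which gave a log2 fold of 1.89 (standard error 0.53, edgeR adjusted p = 0.919). The vesicular transporter gene prt, listed as CG10251, was at 187.2 and 49.1 CPM against 482.6 and 184.2 CPM. Both Vmat and prt were named for the smallest p of this list. Of the 13 genes 2 lay above both controls in both NonA RNAi-labelled libraries and 0 below, against 15.2% and 17.5% of all genes tested. The calcium sensor gene Syt1, whose protein is retrieved by stonins, was at 1368.9 and 858.3 CPM for control replicates 1 and 2, then 1038.9 and 1157.3 CPM for NonA RNAi-labelled replicates 1 and 2, and the synapsin gene Syn at 1594.2 and 937 CPM against 820.9 and 1064.5 CPM. The arrangement described above for shi, lap, endoA and nwk, with control replicate 1 and NonA RNAi-labelled replicate 2 on top, held for 8 of these 13 genes. It held for 7 of the 11 pan-neuronal markers, against 15.5% of all genes tested. In the clathrin, membrane curvature and phosphoinositide lists it held for 2 of 9, 1 of 9 and 3 of 11 genes. Among circadian, glial, photoreceptor, and fat body and hemocyte markers it held for 2 of 11, 3 of 10, 0 of 10 and 3 of 9.

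**Figure D5:**
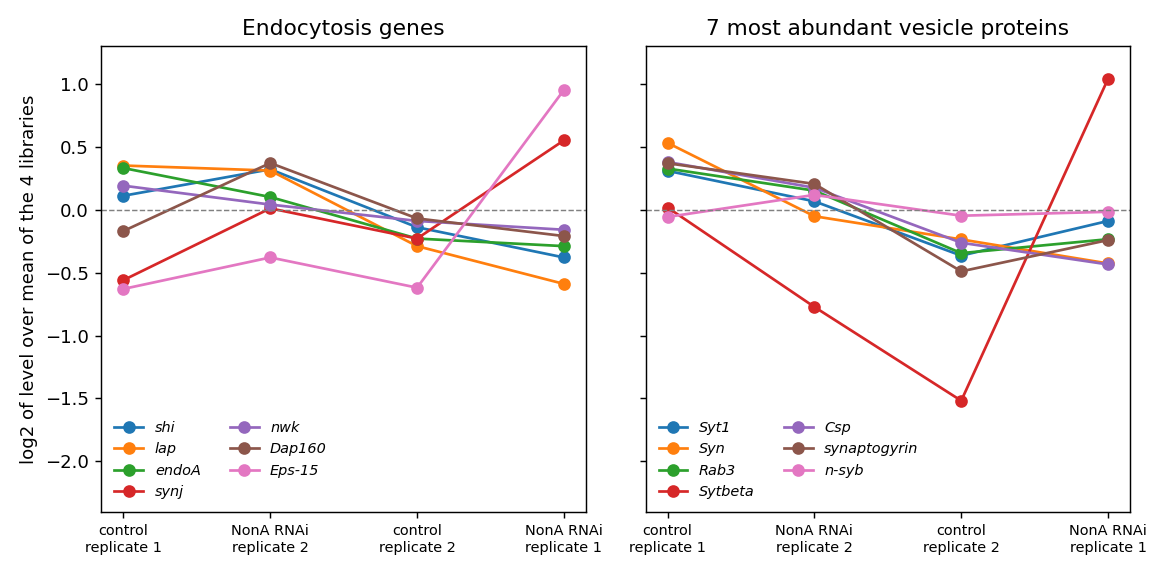
Log2 of the level over the mean of the 4 libraries, for the 7 measured endocytosis genes (left) and the 7 most abundant vesicle proteins (right), with the libraries placed so that those alike in shi and lap stand side by side and lines joining the values of 1 gene. shi, lap, endoA and nwk are above their mean in control replicate 1 and NonA RNAi-labelled replicate 2, and synj and Eps-15 peak in NonA RNAi-labelled replicate 1 (0.55 and 0.95).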

How the data were processed

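Each file holds 1 library. The deposited raw read counts per gene symbol were whole numbers, the deposited length is in bases, and the deposited RPKM is per kilobase of that length, per the file headers. Build dm3, TopHat2 2.1.1 and Cufflinks are listed in the submitters' processing notes. The sources used here do not name a counting program or say whether strand was used. Scaling and tests leave out 4 entries without a gene (unaligned, several places, no feature, ambiguous), so gene reads are 15.9% to 22.0% of all entries (exact 95% binomial bounds 15.9218% to 15.9415% and 21.9675% to 21.992% at either end).

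Counts were scaled to the sum of gene reads. Genes with a mean of at least 1 CPM (9404) were compared with edgeR 4.0.16 in R 4.3.3, two-sided quasi-likelihood test, Benjamini-Hochberg adjustment, threshold 0.05. Standard errors are the log2 fold over the square root of F. Both edgeR and DESeq2 1.42.0 were tested on simulated data. Chromosome arms, gene spans, exonic lengths and overlaps come from Ensembl's BDGP6 annotation, whose positions are not printed because the build differs. Members and lists were chosen with earlier results of these data known. Named were all members, nonA, Pdf and, per pathway list, the 2 most abundant genes and the 2 with the smallest p, with the first and the 2 most abundant genes of a marker list where quoted; n-syb and tim were named after their values were seen. Alternatives were other scalings, filters, DESeq2, a replicate block and each library left out.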

Additional observations from a re-analysis of the deposited data

How the results depend on the processing

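The count of members past the threshold was 0 under all 12 alternatives. Over all genes, edgeR called 79 genes without a filter on low values, DESeq2 called 142, and leaving out single libraries gave between 0 and 22 calls, the latter without control replicate 2. With single libraries left out, the log2 fold ranged from -0.37 to 0.32 for shi, -0.41 to 0.15 for endoA, -0.66 to 0.24 for lap, -0.24 to 0.03 for nwk, -0.09 to 0.48 for Dap160 and -0.57 to 0.19 for nonA. Direction turned without control replicate 1 for endoA (0.15), lap (0.22) and nwk (0.03), without control replicate 2 for shi (-0.1), without NonA RNAi-labelled replicate 1 for endoA (0.02), lap (0.24) and nonA (0.19), and without NonA RNAi-labelled replicate 2 for shi (-0.37) and Dap160 (-0.09). The folds of synj and Eps-15 kept theirs under all 12 alternatives, from 0.39 to 0.93 and from 0.25 to 1.57. With the replicate number as a block, the fold of shi was -0.02, 0 members passed and no other member changed direction. Same-numbered libraries did not deviate together (r = -0.01 over 9404 genes), so the numbers were not treated as pairs. The cause of these shifts was not tested. With 2 libraries a group, the exact Poisson 95% counting intervals of the replicates did not overlap within either group for shi, lap, endoA and synj. For lap they were 670.2 to 705.8 CPM in control replicate 1 and 427.4 to 453.8 CPM in control replicate 2. The part of read number in what could be detected was not tested.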
